A study of Mus musculus with 9 samples.

Results

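The genes described here are 10 genes of extracellular ATP and adenosine signalling, taken by their symbols, with earlier results of these data known. They are the receptors P2rx4, P2rx7, P2ry6, P2ry10, P2ry14, Adora2a and Adora2b, and the enzymes Entpd1, Nt5e and Ada. They are 10 of 45535 named genes in a table of normalized read counts, and each was found once. The RNA came from CD103+ dendritic cells of the lungs of C57/BL6j mice that had received bleomycin, a drug used to injure the lung, for 7 days. Lungs were digested with collagenase and the cells were isolated on magnetic beads. In 5 samples the cells were harvested directly (before culture), and in 4 samples they were harvested after 18 h ex vivo (after culture), in RPMI with 10% FBS and 1% penicillin and streptomycin. All 9 samples therefore share the bleomycin treatment, the digestion and the bead isolation, and no untreated mice and no cultures with an added nucleotide or nucleoside enter the comparison. Whether a sample was 1 mouse or a pool is not in the labels, so the p-values measure the spread between these samples. The RNA extraction text of the labels speaks of lung RNA, while the cell type label gives CD103+ dendritic cells.

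As background, cells release ATP when they are stressed or injured, and extracellular ATP opens the P2X ion channels, while ATP, UDP, UDP-sugars and related molecules act on the G protein-coupled P2Y receptors. The ectoenzyme CD39, encoded by Entpd1, removes phosphates from ATP and ADP, and CD73, encoded by Nt5e, turns the resulting AMP into adenosine. Adenosine signals through its own receptors, of which those encoded by Adora2a and Adora2b raise cyclic AMP, and adenosine deaminase, encoded by Ada, converts it to inosine. In dendritic cells ATP is known as a danger signal that can lead through P2X7 to the inflammasome, and adenosine as a signal that restrains activation.

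After culture, 3 of the 10 genes were higher and 6 were lower. The 3 that rose were Adora2a (2.98-fold), P2rx4 (2.12-fold) and P2rx7 (1.54-fold). The 6 that fell were Entpd1 (3.07-fold lower), Adora2b (2.11-fold), Ada (2.10-fold), P2ry6 (1.96-fold), P2ry14 (1.28-fold) and Nt5e (1.21-fold). P2ry10 did not pass the test. The test was limma on log2(normalized count + 1) with p adjusted by the Benjamini-Hochberg method over 18202 tested genes, and a gene is called at an adjusted p under 0.05. Of all tested genes 68.8% were called, 34.2% higher and 34.6% lower, so calls among these 10 genes are to be read against a background in which most genes moved. The median absolute log2 fold change was 1.03 over the 10 genes and 0.64 over all tested genes, and the median log2 fold change was -0.32 against 0.01. The groups did not overlap for 6 of the 10 genes, compared with 57.3% of tested genes.

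**Figure D1:**
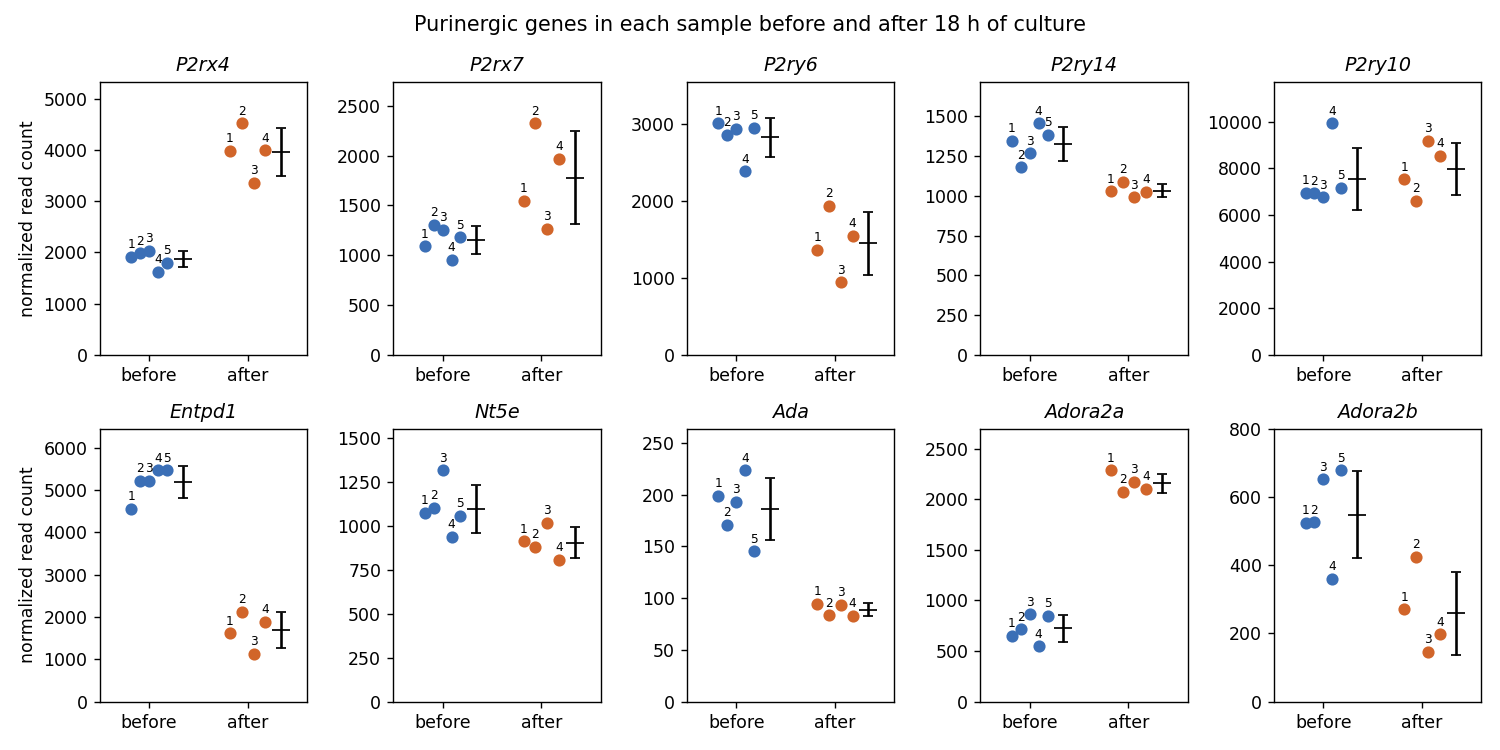
Normalized read counts (y axis, linear, from 0) of the 10 genes in each of the 5 samples before culture (blue) and the 4 after culture (orange), with replicate numbers beside the points. Bars are the mean and SD of each group. Adora2a, P2rx4, P2ry6, P2ry14, Entpd1 and Ada do not overlap between the groups.

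Depth in named genes was 14.7 to 28.8 M reads before and 26.0 to 35.3 M after culture, and 1 read is worth 0.758 to 1.79 normalized counts. The labelled cell type was checked on 10 conventional type 1 dendritic cell markers, and all were detected. Their sum was 129708 to 156133 normalized counts before and 30770 to 34559 after culture. The largest was Wdfy4, with means of 75717 before and 4761 after. Of the 10 markers 8 fell, among them Itgae, the gene for CD103, which averaged 18138 before and 1727 after. The 2 that rose were Flt3 (means 8170 and 13082) and Batf3 (511 and 746). The sum over 8 markers of mature dendritic cells was 24325 to 29019 before and 145478 to 164192 after, with all 8 higher. Markers of other lung cells were lower after culture: 7 of 7 endothelial markers fell (sums of 22080 to 32091 before and 3227 to 4202 after), as did 6 of 6 fibroblast markers (15611 to 28377 and 2206 to 4422) and 7 of 7 epithelial markers (18483 to 38269 and 2687 to 7359). Of 8 monocyte and interstitial macrophage markers 5 were called lower and none higher, with overlapping sums (35710 to 59524 and 22280 to 46027). Csf1r, the largest of this list in both groups, had a higher mean after culture (11801 and 14883) without being called. The same held for Adgre1 (3236 and 4450). Of 7 tested neutrophil markers 6 fell, with means such as 5047 before and 43.2 after for Trem1 and 1968 and 6.15 for S100a9, and Ly6g was at 0 in all cultured samples. Their sums overlapped (13106 to 22538 and 6905 to 14832) because Mmp8 alone rose, from a mean of 401 to 9876. Of 6 markers of conventional type 2 dendritic cells 3 fell and 2 rose, with overlapping sums (16555 to 23718 and 15054 to 28072). Most of that sum after culture was Sirpa (mean 18100) and Itgam (3698), which monocytes and macrophages also express, while Mgl2 averaged 3857 before and 52.1 after and Cd209a 755 and 10.1. Sums overlapped as well for T cell markers (6593 to 7722 and 5817 to 7527) and B cell markers (2644 to 4899 and 2710 to 3855). They did not overlap for alveolar macrophage (17658 to 26348 and 8588 to 11699), NK cell (1324 to 2753 and 288 to 488) and plasmacytoid dendritic cell markers (5146 to 5737 and 2714 to 3389). The alveolar macrophage list did not move as a set: of its 8 markers 5 were called lower and 1 higher. Its largest, Chil3, averaged 17158 before and 7818 after. By contrast Fabp4 averaged 200 and 731, Marco 399 and 528, and Pparg 542 and 547. Of the mast cell and basophil markers only Gata2, which is not specific to these cells, was above a mean of 30 in either group (815 before and 48.1 after), and Mcpt8, Ms4a2 and Fcer1a were near 0 in both. Their part in the results below was not tested, and in bulk RNA fewer cells of a type and less RNA per cell cannot be told apart.

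Among the ATP-gated channels, P2rx4 and P2rx7 both rose. The 2 genes are neighbours on chromosome 5 and are read from the same strand: in GRCm38 with the GENCODE M21 annotation P2rx7 spans chr5:122643911-122691432 and P2rx4 spans chr5:122707544-122729738, with 16111 bases between them. The stretches before their starts are shown because the 2 neighbours moved in the same direction. Each run is 200 bases, from 250 to 51 bases before the RefSeq transcript start (GRCm38.p6, chr5:122707294-122707493 for P2rx4 and chr5:122643677-122643876 for P2rx7, plus strand), written 5′ to 3′, with no annotated exon base inside. Capitals mark matches on either strand to TGACG (the cyclic AMP response element core), TGANTCA (AP-1), TGACNNNGC (antioxidant response element core), CACGTG (E-box) or a form of the NF-kB motif (GGGA, any 4 bases, CC).
P2rx4: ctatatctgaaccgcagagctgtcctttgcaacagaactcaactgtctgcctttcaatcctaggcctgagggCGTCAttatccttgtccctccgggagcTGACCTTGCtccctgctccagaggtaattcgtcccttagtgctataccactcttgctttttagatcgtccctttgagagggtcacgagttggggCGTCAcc
P2rx7: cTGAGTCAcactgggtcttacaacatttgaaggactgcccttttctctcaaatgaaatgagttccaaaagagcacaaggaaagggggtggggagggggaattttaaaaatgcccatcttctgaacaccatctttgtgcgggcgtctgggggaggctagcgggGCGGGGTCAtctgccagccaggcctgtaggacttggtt
The P2rx4 stretch held TGACG on the minus strand at -178 and -57, counted in bases from the transcript start, and TGACNNNGC on the plus strand at -151. TGACG is held by 12.7% and TGACNNNGC by 7.66% of the 32851 RefSeq promoters over the same 200 bases. In the P2rx7 stretch TGANTCA, present in 5.57% of promoters, began at -249. It also held TGACNNNGC on the minus strand at -88 to -80, which overlaps a GGGCGG (GC box, 24.6% of promoters) at -90 to -85. TGACNNNGC was the motif of this search present in both stretches, and such matches are letters in a window, not measured binding.

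P2rx4 encodes a channel that is found largely on lysosomes and at the cell surface. It had 1912, 1985, 2031, 1623 and 1803 normalized counts in the 5 samples before culture and 3983, 4526, 3365 and 4000 in the 4 after culture. Every cultured sample lay above every uncultured one, and the lowest cultured sample was replicate 3. The log2 fold change was 1.08 (SE 0.0935, 95% interval 0.88 to 1.28, limma adjusted p 2.56e-07). Of all tested genes, 69.7% changed by less in either direction.

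P2rx7 encodes the low-affinity ATP channel that gates potassium loss and the inflammasome. Normalized counts of P2rx7 were 1089, 1307, 1253, 952.5 and 1180 before and 1548, 2325, 1262 and 1971 after culture. The groups overlapped: cultured replicate 3 lay below uncultured replicate 2, while the other cultured samples lay above all uncultured ones. P2rx7 changed by 0.59 on the log2 scale (SE 0.153, 95% interval 0.26 to 0.92, limma adjusted p 0.00377). The ratio of P2rx4 to P2rx7 normalized counts was 1.52 to 1.76 in the uncultured and 1.95 to 2.67 in the cultured samples, so the P2rx4 share of the pair was larger in every cultured sample. In the annotation a microRNA gene, Mir8115, shares 119 exon bases with P2rx7, and it was at 0 in all samples.

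Of the other P2X genes only P2rx1 and P2rx5 reached the minimum mean of 10 normalized counts for testing. P2rx1, a fast-desensitizing channel of platelets and smooth muscle, fell from 92.2 ± 30.6 (SD, n = 5) to 40.1 ± 18.1 (SD, n = 4), with overlapping groups (log2 fold change -1.22, limma adjusted p 0.00448). P2rx5 was at 662 ± 49.7 before and 742 ± 140 after culture and was not called (log2 fold change 0.15, limma adjusted p 0.273). P2rx5 was called higher with the GC and length trend removed (log2 fold change 0.41, limma adjusted p 0.0104) and without cultured replicate 2 (0.26, limma adjusted p 0.0391). Differences between genes were not tested.

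The 3 P2Y family members had separate outcomes: P2ry6 and P2ry14 fell and P2ry10 was not called. P2ry6, on the minus strand of chromosome 7 (chr7:100937630-100974649), encodes the receptor for UDP. Its normalized counts were 3005, 2857, 2936, 2380 and 2950 before and 1363, 1930, 940 and 1547 after culture. All cultured samples lay below all uncultured ones, although uncultured replicate 4 stood apart from the other 4 on the low side. For P2ry6 the log2 fold change was -1.01 (SE 0.159, limma adjusted p 7.82e-05). The coefficient of variation was 9.01% before and 28.5% after culture, so the cultured samples differed more among themselves.

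P2ry14, on the minus strand of chromosome 3 (chr3:59113855-59153618), encodes the receptor for UDP-glucose and other UDP-sugars. P2ry14 had normalized counts of 1347, 1179, 1268, 1456 and 1385 before and 1027, 1087, 991 and 1027 after culture. The groups did not overlap, and the cultured samples were close together, with a coefficient of variation of 3.86%. The log2 fold change was -0.36 (SE 0.0774, limma adjusted p 0.00104). With the trend over GC content and transcript length removed it was -0.83. P2ry14 overlaps Med12l on the opposite strand, with 0 shared exon bases. Med12l averaged 406 before and 91.5 after culture, and since the strand setting of the counting is not given in the sources used here, its part in the P2ry14 value was not tested.

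P2ry10, on chromosome X (chrX:107088492-107104974), is named with the P2Y receptors but is known as a receptor for lysophosphatidylserine. Its normalized counts were 6961, 6922, 6757, 9934 and 7164 before and 7534, 6620, 9191 and 8550 after culture. The groups overlapped, and the highest sample of all was uncultured replicate 4. For P2ry10 the log2 fold change was 0.08 (SE 0.124, 95% interval -0.18 to 0.35, limma adjusted p 0.562). This call depended on the correction used: with the GC and length trend removed the log2 fold change was -0.57 (limma adjusted p 8.70e-06). The longest P2ry10 transcript has 36.9% GC and that of P2ry14 39.4%, the lowest values of the 10 genes, compared with 59.2% for Adora2a. Of the 50-base windows of the longest P2ry10 transcript 3.98% also occur in transcripts of other genes, and P2ry10b is the gene that shares the most.

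Of the 3 other genes listed as lysophosphatidylserine receptors, Gpr34 fell from 134 ± 21.2 (SD, n = 5) to 81.7 ± 8.81 (SD, n = 4), with a log2 fold change of -0.70 (limma adjusted p 0.00124). P2ry10b (480 ± 56.9 and 479 ± 49.6) and Gpr174 (223 ± 56.1 and 223 ± 35.0) were not called (limma adjusted p 0.996 and 0.930). These calls depended on the correction as that of P2ry10 did. With the GC and length trend removed P2ry10b was called lower (log2 fold change -0.71, limma adjusted p 9.07e-05), as was Gpr174 (-0.64, limma adjusted p 0.000516), and Gpr34 was at -1.37.

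Among 4 other tested P2Y nucleotide receptors 1 rose and 2 fell. P2ry12, the ADP receptor of platelets and microglia, fell from 323 ± 35.9 (SD, n = 5) to 45.5 ± 13.996 (SD, n = 4), 7.11-fold, or -2.85 on the log2 scale (SE 0.189, limma adjusted p 1.80e-08). P2ry13, a further ADP receptor, fell from 430 ± 56.8 to 288 ± 40.5 (log2 fold change -0.58, limma adjusted p 0.000895). The ADP receptor P2ry1 rose from 80.9 ± 11.1 to 176 ± 35.7 (log2 fold change 1.10, limma adjusted p 4.54e-05). The 3 receptors that respond to ADP therefore did not move in 1 direction. P2ry2, which responds to ATP and UTP, was at 385 ± 88.7 and 374 ± 87.3 and was not called (limma adjusted p 0.868).

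Entpd1 showed the largest fall of the 10 genes. It spans chr19:40612366-40741602 on the plus strand and encodes CD39, the ectonucleotidase that starts the breakdown of extracellular ATP. In the 9 samples Entpd1 had normalized counts of 4554, 5212, 5213, 5461 and 5465 before and 1612, 2124, 1132 and 1876 after culture. The highest cultured sample was below every uncultured one by a wide margin, and cultured replicate 3 was the lowest. For Entpd1 this gave a log2 fold change of -1.65 (SE 0.144, 95% interval -1.96 to -1.34, limma adjusted p 2.70e-07), larger in size than that of 83.1% of tested genes.

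Nt5e, which encodes CD73, the AMP-hydrolysing enzyme on the cell surface, fell least of the 6. It spans chr9:88327197-88372092 on the plus strand. Nt5e had normalized counts of 1074, 1104, 1318, 937 and 1058 before and 913, 881, 1020 and 808 after culture. The groups overlapped, since cultured replicate 3 lay above uncultured replicate 4. The log2 fold change was -0.27 (SE 0.101, 95% interval -0.49 to -0.06, limma adjusted p 0.0274). This call did not hold in 8 of 23 alternatives: the adjusted p was 0.0998 with no filter on low values, 0.142 with upper quartile scaling and 0.0543 with quantile normalization. It was 0.0511 without uncultured replicate 2, 0.0708 without uncultured replicate 3, and 0.0508, 0.0530 and 0.0932 without cultured replicates 1, 2 and 4. The ratio of Entpd1 to Nt5e normalized counts was 3.95 to 5.83 before and 1.11 to 2.41 after culture, without overlap.

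Ada, on the minus strand of chromosome 2 (chr2:163726584-163750239), had the lowest counts of the 10 genes. Its normalized counts were 199, 171, 193, 223 and 145 before and 94.5, 83.4, 93.7 and 82.9 after culture. Every cultured sample was below every uncultured one, and the smallest number of reads behind a value was 81. Ada fell by 1.05 on the log2 scale (SE 0.146, limma adjusted p 2.54e-05).

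Of 7 other tested ectoenzymes of the nucleotide pathway 2 rose and 4 fell. Acp3, a transmembrane acid phosphatase that can form adenosine from AMP, rose from 261 ± 33.6 (SD, n = 5) to 1883 ± 381 (SD, n = 4). Its change of 2.83 on the log2 scale (SE 0.136, limma adjusted p 7.75e-10) was the largest rise of the pathway genes tested, and its 4 cultured values of 1815, 2318, 1404 and 1996 lay far above the uncultured range of 238 to 317. Bst1, an ectoenzyme related to CD38 that acts on NAD, rose from 1425 ± 110 to 3626 ± 1005 (log2 fold change 1.31, limma adjusted p 2.95e-06). Cd38 itself was at 607 ± 100 and 753 ± 145 and was not called (log2 fold change 0.31, limma adjusted p 0.0623). It was called higher in 6 of 23 alternatives, among them upper quartile scaling (limma adjusted p 0.00974) and leaving out uncultured replicate 2 (0.0464) or 3 (0.0286), and it was at -0.15 with the GC and length trend removed.

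The ectoenzymes that fell act on nucleotides or phosphate esters, as does Acp3, which rose. Enpp1, which cleaves ATP to AMP and pyrophosphate, fell from 1096 ± 54.0 (SD, n = 5) to 563 ± 52.0 (SD, n = 4), with a log2 fold change of -0.96 (limma adjusted p 2.47e-07). Entpd3, a relative of CD39, fell from 60.1 ± 21.5 to 3.68 ± 1.56 (log2 fold change -3.70, limma adjusted p 5.24e-07). Entpd2, another relative, fell from 30.8 ± 9.12 to 5.04 ± 4.38 and was at 0 in cultured replicate 1 (limma adjusted p 0.000722). Alpl, the tissue-nonspecific alkaline phosphatase, fell from 41.1 ± 13.1 to 14.5 ± 7.41 (limma adjusted p 0.00184). Entpd1, Entpd2 and Entpd3 thus fell together, with Entpd2 and Entpd3 at levels where few reads stand behind the cultured values.

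Adora2a and Adora2b, which encode adenosine receptors coupled to cyclic AMP production, moved in opposite directions. Adora2a, on the plus strand of chromosome 10 (chr10:75316877-75334784), encodes the high-affinity receptor of the pair. The counts of Adora2a, normalized, were 647, 714, 862, 545 and 848 before and 2287, 2070, 2170 and 2101 after culture. The cultured samples were close together and far above the uncultured ones, and the coefficient of variation was 4.46% after and 18.6% before culture. The log2 fold change was 1.59 (SE 0.121, 95% interval 1.33 to 1.86, limma adjusted p 7.04e-08).

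Adora2b, on the plus strand of chromosome 11 (chr11:62248984-62266453), encodes the low-affinity one. Its normalized counts were 525, 526, 652, 359 and 678 before and 270, 424, 146 and 197 after culture. The groups overlapped through 1 pair, cultured replicate 2 lying above uncultured replicate 4. The coefficient of variation of 46.7% after culture was the widest of the 10 genes. The log2 fold change was -1.16 (SE 0.262, 95% interval -1.72 to -0.59, limma adjusted p 0.00146), and it ran from -1.43 to -0.92 with 1 sample left out at a time.

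The ratio of Adora2a to Adora2b normalized counts was 1.23, 1.36, 1.32, 1.52 and 1.25 in the 5 uncultured samples. In the 4 cultured samples it was 8.46, 4.88, 14.9 and 10.7. All cultured ratios lay above all uncultured ones, and they spread over a wider range, with the Adora2b count varying more than the Adora2a count. The other 2 adenosine receptor genes were rarer. Adora3 fell from 150 ± 17.8 (SD, n = 5) to 40.0 ± 14.7 (SD, n = 4), with a log2 fold change of -1.94 (limma adjusted p 3.42e-06), while Adora1 rose from 8.22 ± 2.40 to 21.0 ± 7.56 (log2 fold change 1.23, limma adjusted p 0.00590). Both of these receptors are known to lower cyclic AMP, and as with Adora2a and Adora2b 1 of the pair rose and 1 fell.

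**Figure D2:**
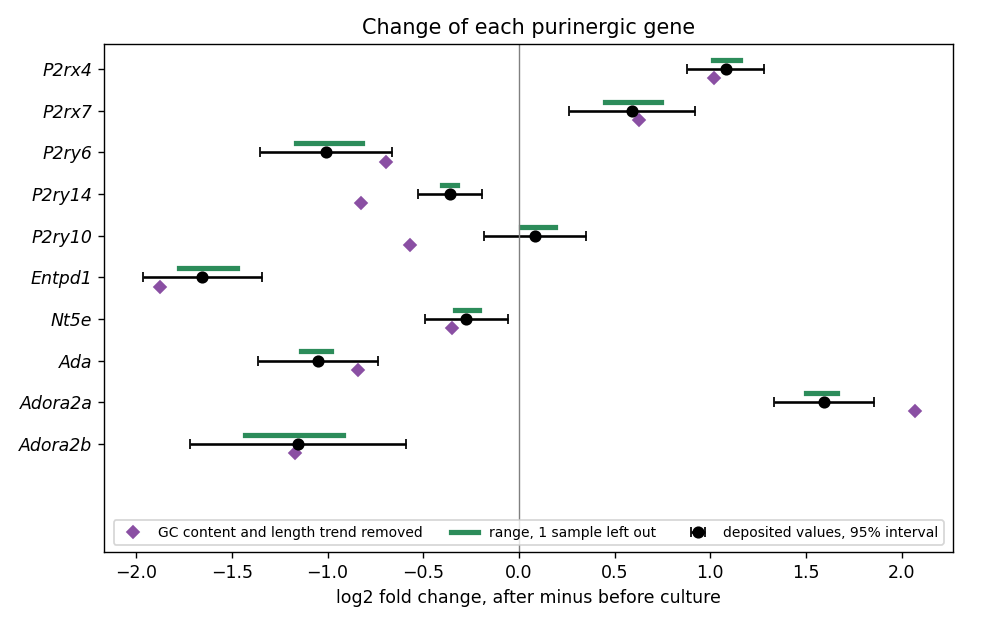
Log2 fold change of each of the 10 genes, after minus before culture (x axis), with the 95% interval from limma (black), the range with 1 sample left out (green) and the value with the GC content and length trend removed (purple). P2ry14 goes from -0.36 to -0.83 and P2ry10 from 0.08 to -0.57 under that correction; the 9 genes other than P2ry10 keep their direction in every setting drawn.

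The stretches before the starts of Adora2b and Ada are shown because both genes fell about equally and neither window holds an annotated exon base. They cover 250 to 51 bases before the RefSeq starts in GRCm38.p6, at chr11:62248734-62248933 on the plus strand for Adora2b and chr2:163750290-163750489 on the minus strand for Ada, with capitals as above.
Adora2b: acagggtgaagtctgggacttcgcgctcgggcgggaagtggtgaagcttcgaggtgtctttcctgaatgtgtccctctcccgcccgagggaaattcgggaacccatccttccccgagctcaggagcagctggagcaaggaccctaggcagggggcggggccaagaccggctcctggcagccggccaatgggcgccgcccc
Ada: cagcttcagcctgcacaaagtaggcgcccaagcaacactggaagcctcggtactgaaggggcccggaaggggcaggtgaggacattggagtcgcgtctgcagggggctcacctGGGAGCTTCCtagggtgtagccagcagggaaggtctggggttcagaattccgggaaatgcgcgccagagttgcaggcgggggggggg
The Adora2b stretch held 4 matches to GGGCGG and a CCAAT (28.4% of promoters) at -67, and no match to the capitalized motifs. The Ada stretch held the NF-kB form, found in 13.8% of promoters, at -137, and a CCAAT on the minus strand at -167 to -163. CCAAT was the motif of the search that both held. It was not particular to them: the Entpd1 window, with 118 annotated exon bases, held it at -113 and -81. The windows of Nt5e and P2ry14, which also fell, did not hold it. However, all 200 bases of the Nt5e window and 76 of the P2ry14 window are annotated exon bases. P2ry10, whose window also lacks exon bases, held TGANTCA at -99. Of the 10 genes 8 have a RefSeq promoter in the table used, all but P2ry6 and Adora2a.

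Levels were set beside each other after division by the joined length of all annotated exons, in normalized counts per kb. This length can exceed that of the longest transcript: 7025 against 3895 bases for P2rx4, 8602 against 3995 for Nt5e and 3062 against 2596 for Adora2a. The order of genes depends on this choice, and no other length was tried. Before culture P2ry10 was highest (2531 ± 450, SD, n = 5), followed by P2ry6 (979 ± 88.1) and Entpd1 (929 ± 66.7), whose ranges overlapped. Adora2b (297 ± 68.8), P2rx4 (266 ± 23.2) and Adora2a (236 ± 44.0) formed the next group, each overlapping its neighbour, and P2rx7 (194 ± 23.5) overlapped Adora2a. Nt5e (128 ± 16.1), P2ry14 (120 ± 9.69) and Ada (93.0 ± 14.9) were lowest, again with overlapping neighbours. By this length the order falls into 4 blocks, and neighbouring ranks within a block do not stand apart from the replicate spread.

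After culture P2ry10 was still highest per kb (2674 ± 379, SD, n = 4). Adora2a was next at 704 ± 31.4, and its range of 676 to 747 lay above the 479 to 644 of P2rx4 (565 ± 67.6). P2ry6 (501 ± 143) overlapped P2rx4, and Entpd1 (302 ± 76.0) overlapped P2ry6 and P2rx7 (298 ± 78.3). Adora2b (140 ± 65.6), Nt5e (105 ± 10.2) and P2ry14 (93.4 ± 3.61) overlapped their neighbours, and Ada was lowest (44.3 ± 3.17) with no overlap. By this length Adora2a thus went from the sixth to the second place and Entpd1 from the third to the fifth. Places between genes could differ with transcript length as the divisor. The ratio of P2rx7 to Entpd1 normalized counts, channel against ATP-degrading enzyme, was 0.174 to 0.251 before and 0.961 to 1.11 after culture.

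**Figure D3:**
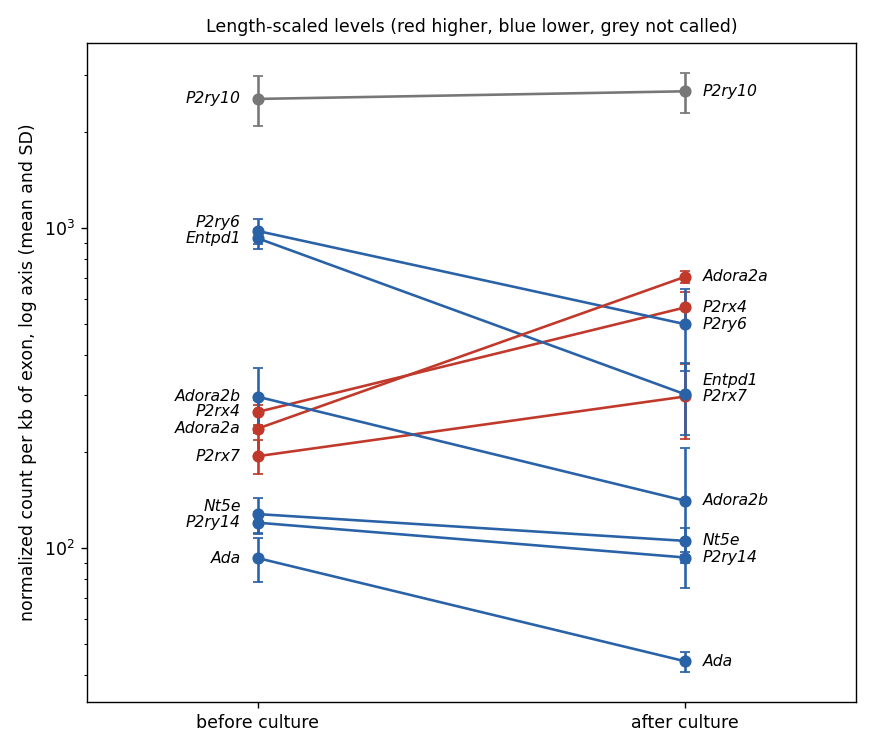
Mean normalized count per kb of annotated exon (y axis, log scale) of the 10 genes before (n = 5) and after culture (n = 4), with SD bars. Red lines are genes called higher, blue lower and grey not called; the line of Adora2a crosses those of P2ry6 and Entpd1, while P2ry10 stays highest.

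Within the cultured group the genes shared part of their spread between replicates. P2rx4, P2rx7, P2ry6 and Entpd1 all had the order replicate 2, 4, 1, 3 from high to low, an order held by 13.6% of tested genes. In replicate 2 P2ry6 was at 134%, P2rx7 at 131%, Entpd1 at 126% and Adora2b at 164% of the group mean, and in replicate 3 they were at 65.0%, 71.0%, 67.1% and 56.2%. The summed monocyte and interstitial macrophage markers had the same order, with 31942, 46027, 22280 and 34680 normalized counts in replicates 1 to 4, or 94.7%, 136%, 66.1% and 103% of their mean. The sum over the type 2 dendritic cell list, after culture mostly Sirpa and Itgam, had it too, at 96.3%, 127%, 68.3% and 108%. Adora2a, P2ry14, Nt5e and Ada stayed within 89.2% to 113% of their means. The part of these cells in the values of P2rx4, P2rx7, P2ry6 and Entpd1 was not tested.

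Before culture replicate 4 stood at an end of its group for 9 of the 10 genes. It was lowest for P2rx4, P2rx7, P2ry6, Nt5e, Adora2a and Adora2b and highest for P2ry10, P2ry14 and Ada; among all tested genes it was lowest for 30.4% and highest for 29.2%. Its monocyte and macrophage marker sum was 35710 against 48255 to 59524 in the other 4 samples, and its epithelial sum of 38269 was the highest. Without this sample and cultured replicate 3, the lowest in those markers in each group, 3 of the 10 genes were again higher and 6 lower. The log2 fold changes were then 0.67 for P2rx7, -0.88 for P2ry6, -1.46 for Entpd1 and -1.06 for Adora2b. This alternative was chosen after the data had been seen. It did not equalize the monocyte and macrophage markers between the groups. Their sums in the samples kept were 48255 to 59524 before and 31942 to 46027 after culture, without overlap. Whether the changes hold apart from these cells was therefore not tested.

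**Figure D4:**
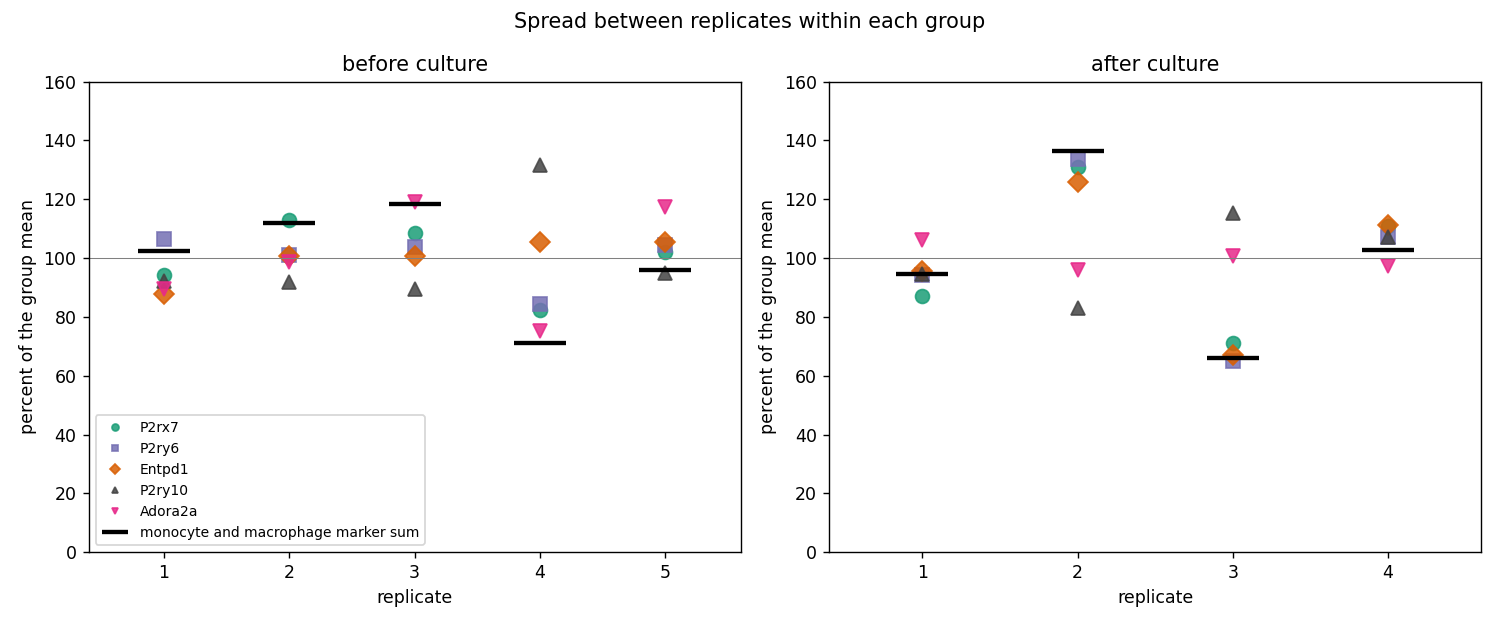
Normalized counts of P2rx7, P2ry6, Entpd1, P2ry10 and Adora2a in each sample as a percent of their group mean (y axis), with the summed monocyte and interstitial macrophage markers as black bars. After culture P2rx7, P2ry6, Entpd1 and the marker sum are highest in replicate 2 and lowest in replicate 3, where the marker sum is at 66.1% of its mean; Adora2a stays near 100%.

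The wider pathway was described with 75 further genes, of which 74 were found and 66 could be tested. Of these 21 were higher, 27 lower and 18 not called, 72.7% called against 68.8% of all tested genes. Their median absolute log2 fold change of 0.65 was close to the 0.64 of all tested genes, so the lists as a whole moved about as much as the rest of the transcriptome.

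Genes of ATP release gave 2 higher and 1 lower of 4 tested. Panx1, which encodes the ATP-conducting channel pannexin-1, rose from 495 ± 50.3 (SD, n = 5) to 850 ± 129 (SD, n = 4), with a log2 fold change of 0.77 (limma adjusted p 4.67e-05). Slc17a9, the vesicular nucleotide transporter, rose from 243 ± 19.7 to 349 ± 69.8 (log2 fold change 0.50, limma adjusted p 0.00357). Lrrc8a, a subunit of the volume-regulated anion channel, fell from 530 ± 42.7 to 333 ± 36.8 (log2 fold change -0.67, limma adjusted p 4.91e-05). Gja1, a connexin gene, was at 265 ± 41.5 and 246 ± 14.2 and was not called (limma adjusted p 0.524), but it was called lower with the GC and length trend removed (log2 fold change -0.46, limma adjusted p 0.00361).

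Genes of nucleoside transport and metabolism gave 4 higher, 6 lower and 5 not called of 15. Slc29a1, an equilibrative nucleoside transporter of the cell surface, fell from 1467 ± 161 (SD, n = 5) to 819 ± 122 (SD, n = 4), with a log2 fold change of -0.85 (limma adjusted p 1.49e-05). Slc29a3, the lysosomal member of the same family, rose from 3954 ± 320 to 7135 ± 1121 (log2 fold change 0.84, limma adjusted p 9.91e-06). Slc29a1 and Slc29a3 thus moved in opposite directions. Of the same family, Slc29a2 rose from a mean of 140 to 194 (log2 fold change 0.49, limma adjusted p 0.0179). Slc29a4 fell from 23.5 to 9.64 (log2 fold change -1.25, limma adjusted p 0.00672). Ahcy, which splits S-adenosylhomocysteine into homocysteine and adenosine, fell from 837 ± 42.7 to 530 ± 69.2 (limma adjusted p 3.74e-05), and the AMP deaminase Ampd3 rose from 1188 ± 58.0 to 1688 ± 241 (limma adjusted p 0.000322).

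Among 19 genes of the cyclic AMP arm, through which the products of Adora2a and Adora2b signal, 5 rose, 7 fell and 7 were not called. The adenylyl cyclase genes Adcy6 and Adcy4 moved most and in opposite directions. Adcy6 rose from 2436 ± 252 (SD, n = 5) to 12377 ± 1418 (SD, n = 4), or by 2.34 on the log2 scale (SE 0.0983, limma adjusted p 2.19e-10), and Adcy4 fell from 1201 ± 185 to 149 ± 13.04 (log2 fold change -2.99, SE 0.120, limma adjusted p 1.42e-10). Adcy4 moved in the same direction as the endothelial markers given above, and their part in it was not tested. Pde3b, a phosphodiesterase that breaks down cyclic AMP, rose from 1490 ± 156 to 4730 ± 442 (limma adjusted p 2.36e-09), while Crem, a cyclic AMP-responsive transcription factor, fell from 3939 ± 262 to 1793 ± 64.7 (limma adjusted p 8.85e-09).

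All 10 genes listed as the output of P2X7 were called, 6 higher and 4 lower, where 68.8% of all tested genes were called. The groups did not overlap for 8 of the 10, compared with 57.3% of tested genes. Nlrp3, the inflammasome sensor, had 9240, 9275, 10571, 8551 and 10854.5 normalized counts before and 716, 918, 369 and 597 after culture, 14.9-fold lower (log2 fold change -3.97, SE 0.194, limma adjusted p 9.22e-10). Il1b, the cytokine that the inflammasome matures, fell from 22902 ± 3456 (SD, n = 5) to 3895 ± 851 (SD, n = 4), with a log2 fold change of -2.57 (limma adjusted p 3.64e-09). Nlrp3 and Il1b were therefore far lower in all cultured samples, in which P2rx7 itself was higher on average. Both moved in the same direction as 6 of the 7 tested neutrophil markers given above, and the part of those cells was not tested. The protease gene Casp1 rose from 368 ± 25.8 to 986 ± 57.0 (log2 fold change 1.42, limma adjusted p 6.20e-09) and the pore-forming Gsdmd from 1178 ± 112 to 2370 ± 152 (log2 fold change 1.01, limma adjusted p 1.80e-07). These are RNA levels, and neither cytokine release nor channel activity was measured.

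**Figure D5:**
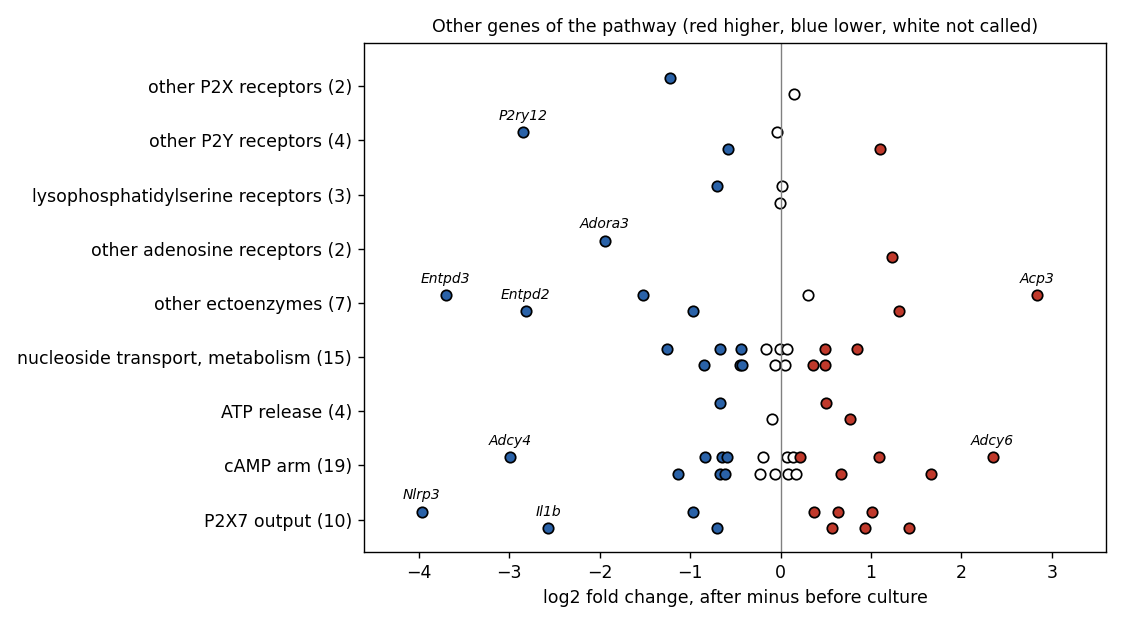
Log2 fold change, after minus before culture (x axis), of the 66 tested further pathway genes by list, with the number tested in brackets; red is called higher, blue lower and white not called. The genes at the ends are Nlrp3 (-3.97), Entpd3 (-3.70) and Adcy4 (-2.99) on the low side and Acp3 (2.83) and Adcy6 (2.34) on the high side.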

How the data were processed

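RNA of 5 uncultured and 4 cultured samples was compared, grouped by the treatment label. The deposited values are normalized read counts (unit: signal) for each gene, in 1 table; the submitters' processing notes name DESeq2 and GRCm38. The aligner, counter, strand setting and filters are not given in the sources used here. Every value (100%, tolerance 1e-06) is a whole number of reads times 1 step per sample, so whole reads could be recovered; the factors equal median-of-ratios size factors to within 6.66e-16. Neither GC content nor gene length is corrected for in these values. The 3782 of 49317 rows without a symbol, 6.43 to 10.9% of reads before and 3.87 to 5.46% after culture, were left out.

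The 18202 genes whose mean normalized count reached 10 were tested with limma 3.58.1 in R 4.3.3, on log2(value + 1), with group as the only term, a mean-variance trend, two-sided tests and Benjamini-Hochberg adjustment at 0.05. Fold changes on this scale understate the change of low genes; folds without "log2" are ratios of group means. The script was tested on simulated data. Alternatives were other pseudocounts, filters and scalings, edgeR 4.0.16 and DESeq2 1.42.0 on whole reads, a replicate block, removal of the GC and length trend (GC and length known for 98.3% of tested genes), and each sample left out.

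The genes and lists were chosen with earlier results of these data known. All 10 genes are named. Of each further list, the 4 with the smallest adjusted p are named, and Slc29a2 and Slc29a4 in addition. Of the other P2X, P2Y, lysophosphatidylserine and adenosine receptors and ectoenzymes every tested gene is named. Pnp was not matched; Hprt was matched as Hprt1. Reads carry no molecular identifiers. The depth sets the precision: the fewest reads behind a value of the 10 genes were 81, for Ada in uncultured replicate 5. Positions and exon lengths are from GENCODE M21, promoters from RefSeq (GRCm38.p6). Figures were drawn with matplotlib 3.10.9.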

Additional observations from a re-analysis of the deposited data

Results flagged for a closer look

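A check covered 44 genes, the 10 genes and the further pathway genes named except Slc29a2 and Slc29a4. In it each group was searched for a sample standing apart from the rest by a gap large against the group's range. This found 8 of 88 groups, and chance gives about 1 in 20. Uncultured replicate 4 was the sample concerned in 4 of them, of which 2 are among the 10 genes: P2ry6 was low there at 2380 normalized counts and P2ry10 high at 9934. In the same sample Slc29a3, the lysosomal nucleoside transporter, was low at 3405 and Slc17a9, the vesicular nucleotide transporter, high at 277. Entpd1 was low in uncultured replicate 1 at 4554, still above all cultured samples, and Enpp1 was high in uncultured replicate 3 at 1191. After culture Cd38 was high in replicate 2 at 970 and Crem high in replicate 3 at 1890. The value of Crem in that sample was below all uncultured samples.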

How the results depend on the processing

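Of the 10 genes all but P2ry10 and Nt5e kept their call and direction in all 23 alternatives, and the counts of higher and lower genes among the 10 genes, the pathway lists and all tested genes stayed within 1.5 times of those given. Of these 8 P2rx7 came nearest to losing its call, with an adjusted p of up to 0.0498. Nt5e was called in 15 of 23 alternatives (adjusted p 0.00184 to 0.142). Upper quartile scaling moved the median gene by 0.11 on the log2 scale and the share of higher genes among all calls from 49.7% to 56.1%.

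Log2 fold changes that changed sign were small in size in most settings. P2ry10 was -0.57 with the GC and length trend removed and -0.57 with the replicate block in addition. P2ry2 was 0.069 with upper quartile scaling, 0.086 with quantile normalization, 0.021 with the replicate block, 0.33 with the trend removed, 0.38 with trend removal and block, 0.0042 without the 2 samples lowest in macrophage markers, and -0.16 to 0.13 with 1 sample left out. P2ry10b was 0.029 with TMM, 0.11 with upper quartile scaling, 0.082 with quantile normalization, 0.12 without those 2 samples, and -0.061 to 0.060 with 1 sample left out, and it was called lower at -0.71 with the trend removed and -0.73 with trend removal and block. Gpr174 was -0.016 with edgeR, -0.0077 with DESeq2, -0.0041 with the block, -0.64 with the trend removed, -0.66 with trend removal and block, and -0.068 to 0.14 with 1 sample left out. Cd38 was -0.15 with the trend removed and -0.17 with the block in addition, and it was called higher with TMM (0.34), upper quartile scaling (0.42), quantile normalization (0.38), the block by library number (0.36) and without uncultured replicate 2 or 3. Gja1 was 0.014 with upper quartile scaling and 0.080 with quantile normalization, and it was called lower at -0.46 with the trend removed and -0.53 with the block in addition. P2rx5 was called higher at 0.41 with the trend removed and 0.42 with the block in addition. The cause of these changes was not tested.

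The labels do not say whether samples are paired. Deviations of samples with the same title number correlated at 0.081, 0.080, -0.213 and -0.040. For the same library number the values were 0.081, 0.247, 0.349 and 0.045. Each cultured sample was closest to its own library number. The lead over the next sample was small for cultured replicates 1 (0.081 against 0.066) and 4 (0.045 against 0.022). This is a hint from the data and not the design, and it does not settle the pairing. The replicate block by title number gave 5761 higher and 5885 lower genes, that by library number 6390 and 6446, and both again gave 3 higher and 6 lower among the 10 genes. Counts of a few reads limit Entpd2, Entpd3 and Adora1.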
